A study of Mus musculus with 21 samples.

Results

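The fibroblast growth factors Fgf4, Fgf8, Fgf15 and Fgf17 and the receptors Fgfr1, Fgfr2, Fgfr3 and Fgfr4 were followed across mouse embryonic stem cells grown in different media. The 8 members were chosen by gene symbol, and all 8 were found among the 31053 gene IDs of the count tables. Only 2 of them, Fgf4 and Fgfr1, passed the filter on low counts that left 10643 genes for testing. The other 6 are described by their counts.

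The study measured messenger RNA by sequencing in 21 libraries, 7 groups of 3 replicates, all from E14Tg2a. This is an established male embryonic stem cell line in which, per the series' design text, 1 allele of Rex1 (Zfp42) carries a knocked-in GFPd2 reporter, and every group carries it. The design text names zero passage, 1 month and 2 months of culture. The groups were labelled 2i+LIF PO, 2i+LIF LP, CH+LIF LP, LIF LP, 2i+LIF HP, CH+LIF HP and LIF HP. LIF is the cytokine that sustains self-renewal, CH stands for the GSK3 inhibitor CHIR99021, and 2i for CHIR99021 together with PD0325901, an inhibitor of the kinase MEK. The labels give the same growth protocol for all groups: 1 week in NDiff227 with CHIR99021 at 3 uM and PD0325901 at 1 uM, then passages in which drugs were given and withdrawn in turn. The labels do not say which of LP and HP was cultured longer, and PO was read as zero passage because it occurs in 2i+LIF alone. All comparisons are within 1 cell line, and nothing in the labels says whether replicates were separate cultures, so p-values measure the spread between these libraries, which may be technical.

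FGF ligands bind receptor tyrosine kinases of the Fgfr family together with heparan sulfate, and the receptors signal through the adaptor Frs2 and the Ras, Raf, MEK and ERK kinases. Fgf4 is the ligand that undifferentiated mouse embryonic stem cells make for themselves. Its signal through Fgfr1 primes them to leave the naive state, and MEK inhibition in 2i medium blocks that signal downstream of the receptor. In the early embryo Fgf4 from the epiblast acts on Fgfr1 and Fgfr2 in the primitive endoderm precursors.

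The promoter of Fgf4 is shown because the results turn on Fgf4, the member called in the joint test of the cultured groups. The window holds the 250 bases before the RefSeq start of the gene on the plus strand of GRCm38.p6, at chr7:144861136-144861385, with motif matches in capitals.

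Fgf4 promoter: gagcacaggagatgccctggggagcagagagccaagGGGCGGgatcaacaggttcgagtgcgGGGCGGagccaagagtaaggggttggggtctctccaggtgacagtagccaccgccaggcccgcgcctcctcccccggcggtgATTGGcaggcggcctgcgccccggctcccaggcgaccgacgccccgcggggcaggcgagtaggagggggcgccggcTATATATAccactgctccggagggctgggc

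The capitals mark GC boxes (GGGCGG on either strand, the letters bound by Sp1) with their first bases at -214 and -188 from the start, a CCAAT box on the minus strand (ATTGG) at -106, and overlapping TATA matches (TATATA) at -30 and -28. Of 32851 RefSeq windows of the same length, 32.7% held a GC box, 33.8% a CCAAT box in either orientation and 5.25% a TATATA. The octamer ATTTGCAT was not in the Fgf4 window, and 1.6% of windows held it. The well-studied Oct4 and Sox2 enhancer of Fgf4 lies in the last exon of the gene, outside this window. The window held 21 CpG dinucleotides against a median of 6 over all windows, and 83.7% of windows held fewer. The table of promoters had windows for 4 members, Fgf4, Fgfr2, Fgfr3 and Fgfr4. A TATA match was found in the window of Fgf4 but in none of the other 4 windows, of which Fgfr3 had 2.

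Gene counts per library ranged from 1132126 to 3783043, and levels are given as CPM (counts-per-million, a library's counts divided by its total) scaled by edgeR's TMM method. Before any result, 2 libraries stood apart: replicate 1 of 2i+LIF LP, in which the single gene Gm42418 took 31.7% of counts, and replicate 1 of 2i+LIF PO, with 39.1% mitochondrial counts. A fit without them tested 10960 genes, and its values are given beside results below. The file names place the PO libraries in another sequencing run, so run and PO cannot be told apart. All 12 embryonic stem cell markers had counts in the set, with a summed level of 2928 to 6806 CPM per library, whereas the 8 fibroblast markers summed to 3.83 to 38 CPM and the 10 primitive endoderm markers to 24.7 to 82.7 CPM. Of the other lists, primitive streak markers summed to 3.32 to 139 CPM with Wnt3a at 0, neural markers to 35.5 to 253 CPM, trophectoderm markers to 35.9 to 197 CPM with Elf5 at 0, and formative and primed epiblast markers to 53 to 205 CPM with Wnt8a at 0. Genes known to respond to ERK went against the media labels in places. They were low in LIF HP although PD0325901 is not in its label, and high in replicates 2 and 3 of 2i+LIF LP although it is. Replicate 1 of 2i+LIF LP was mixed, with the ERK targets Etv4 at 135 CPM and Dusp6 at 0.701 CPM. Throughout, a group name means the libraries so labelled.

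Fgf4 (ENSMUSG00000050917, chromosome 7, 144847367 to 144865243, plus strand, GRCm38) was the most abundant FGF ligand. Of the 2 members past the filter it was the one with called differences. It had counts in all 21 libraries, 6625 in all. Its level in 2i+LIF PO was 272, 256 and 217 CPM in replicates 1 to 3. Among the LP groups it was 73.6, 111 and 160 CPM in 2i+LIF, 201, 169 and 94.9 CPM in CH+LIF, and 226, 195 and 150.5 CPM in LIF. The HP groups held 84.6, 34.9 and 51.8 CPM in 2i+LIF, 86.3, 102 and 101 CPM in CH+LIF, and 202, 228 and 243 CPM in LIF. All 3 libraries of LIF HP lay above all libraries of the other HP groups, and those of CH+LIF HP lay above those of 2i+LIF HP. The LP groups overlapped one another.

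**Figure D1:**
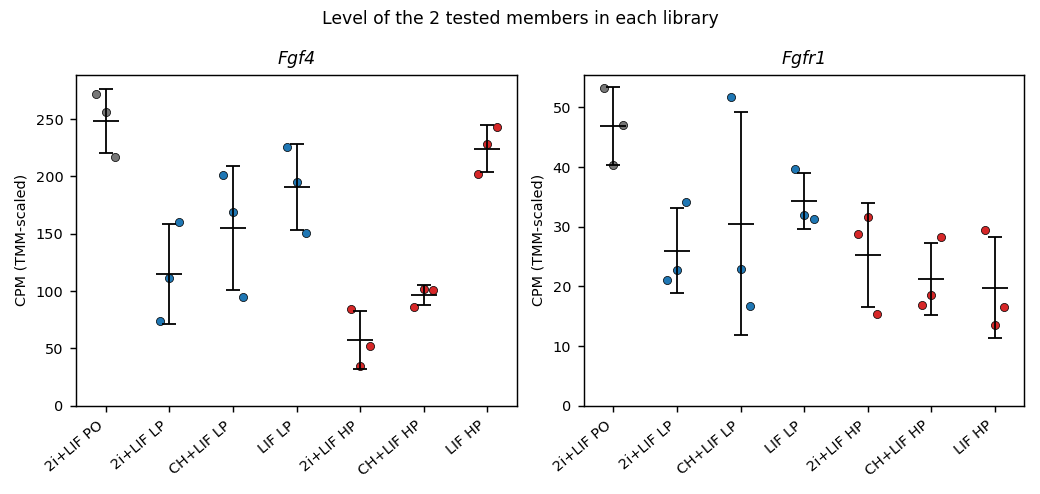
Level of Fgf4 (left) and Fgfr1 (right) in each library, in TMM-scaled CPM, by group. Points are libraries, horizontal bars are group means and whiskers are 1 SD of 3 libraries. Fgf4 is highest in 2i+LIF PO and LIF HP, at means of 248 and 225 CPM, and lowest in 2i+LIF HP, at 57.1 CPM, while the Fgfr1 means of the cultured groups lie between 19.8 and 34.3 CPM.

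Ordered by mean, Fgf4 stood at 248 ± 28.4 CPM in 2i+LIF PO, 225 ± 20.9 in LIF HP, 190 ± 37.8 in LIF LP and 154.8 ± 54.2 in CH+LIF LP. The lower end was 115 ± 43.3 CPM in 2i+LIF LP, then CH+LIF HP at 96.3 ± 8.71 CPM and 2i+LIF HP at 57.1 ± 25.3 CPM (SD, n = 3 each). Each group overlapped the next in this order and differed from it by less than the larger SD, except for CH+LIF HP and 2i+LIF HP, whose ranges did not overlap. Fgf4 differed among the 6 cultured groups in a joint edgeR quasi-likelihood test (F = 7.59, adjusted p = 0.00415), and Fgfr1 did not pass (adjusted p = 0.598). The same test called 13.1% of all genes tested, so 1 of the 2 tested members passed against that background. Without the 2 libraries that stood apart Fgf4 passed (adjusted p = 0.000347) and Fgfr1 did not (0.482), against 24.5% of all genes.

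Among media at HP, Fgf4 was higher in LIF than in 2i+LIF by 1.97 on the log2 scale, a 3.92-fold difference (SE 0.37, 95% interval 1.18 to 2.76, adjusted p = 0.0024 by edgeR's quasi-likelihood test). This contrast called 3.78% of all genes. The call held in all 29 alternatives run, with adjusted p from 6.86e-06 to 0.0313, and without the 2 libraries that stood apart the difference was 1.94, in a fit that called 13% of genes. LIF HP was also 1.22 above CH+LIF HP (SE 0.36, interval 0.45 to 1.99), with no overlap between libraries, but missed the threshold in the edgeR fit (adjusted p = 0.0949, background 1.47%). It passed with DESeq2 (adjusted p = 0.0188, background 3.56%) and without the 2 libraries that stood apart (0.0168, background 6.92%). It also passed without replicate 1 of 2i+LIF LP alone (0.0446, background 2.86%) and in a fit of only those 2 groups (0.00293, background 13.1%). CH+LIF HP exceeded 2i+LIF HP by 0.75 (interval -0.023 to 1.52, adjusted p = 0.419, background 2.02%), and by 0.73 without those 2 libraries (adjusted p = 0.209).

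At LP the media were not separated by Fgf4. The difference from 2i+LIF was 0.73 in LIF (interval -0.03 to 1.49, adjusted p = 0.418) and 0.43 in CH+LIF (interval -0.32 to 1.19, adjusted p = 0.684), and LIF exceeded CH+LIF by 0.30 (interval -0.46 to 1.05). Replicate 1 of 2i+LIF LP, which stood apart, held the lowest of these levels. Without it and replicate 1 of PO the differences from 2i+LIF LP were 0.50 in LIF (adjusted p = 0.782) and 0.18 in CH+LIF (adjusted p = 1). The LP contrasts called 0.489%, 0% and 0.047% of all genes. The 0 calls of CH+LIF LP against 2i+LIF LP came from edgeR, in which 950 genes had an unadjusted p under 0.05, and DESeq2 called 25.

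Between LP and HP within a medium, Fgf4 in 2i+LIF was 1.00 lower at HP (SE 0.36, interval -1.78 to -0.23), a 2-fold difference that missed the threshold (adjusted p = 0.131, background 3.67%). It passed without the 2 libraries that stood apart (log2 difference -1.22, adjusted p = 0.0281, background 5.72%), and without replicate 1 of 2i+LIF HP (-1.42, adjusted p = 0.0408, background 4.42%). In CH+LIF the difference was -0.69 (interval -1.45 to 0.075, background 0.0094%). LIF showed 0.24 (interval -0.51 to 0.99, background 9.96%), so of these 3 contrasts the one with the largest share of called genes had the smallest Fgf4 difference. Whether this HP against LP difference varied between media was tested directly. None of the 6 member interactions was called by edgeR or DESeq2, and 1, that of Fgf4 in LIF against 2i+LIF, had an unadjusted p under 0.05. Its size was 1.24 (SE 0.50, interval 0.16 to 2.32, adjusted p = 0.333, background 0.15%), or 1.45 without the 2 libraries that stood apart (adjusted p = 0.0986). The other 2 for Fgf4 were 0.92 (LIF against CH+LIF, background 0.423%) and 0.32 (CH+LIF against 2i+LIF, background 0.0188%).

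**Figure D2:**
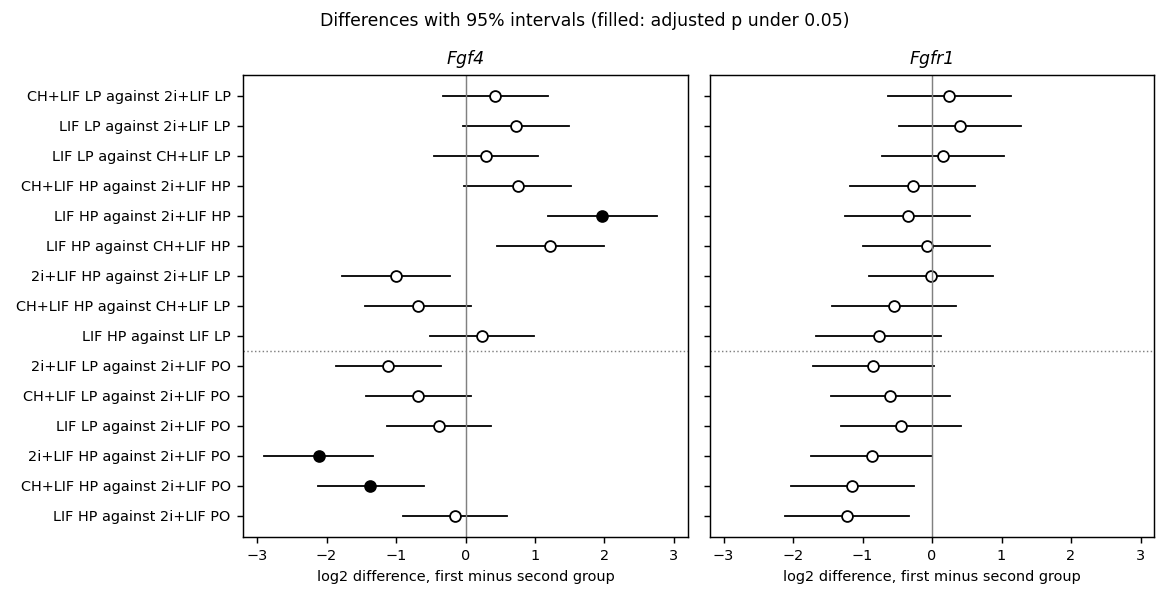
Log2 differences of Fgf4 (left) and Fgfr1 (right) with 95% intervals in 15 contrasts, the first named group minus the second. The dotted line separates 9 contrasts among cultured groups from 6 against 2i+LIF PO, and filled points have an edgeR adjusted p under 0.05. Filled points occur for Fgf4 in LIF HP against 2i+LIF HP (1.97), 2i+LIF HP against PO (-2.11) and CH+LIF HP against PO (-1.37).

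All 6 cultured groups had a lower mean of Fgf4 than 2i+LIF PO, and the difference was called in 2 of them. In 2i+LIF HP it was -2.11 (SE 0.37, interval -2.90 to -1.33, adjusted p = 0.000602, background 10.6%), a 4.33-fold lower level called in all 29 alternatives and -2.03 without the 2 libraries that stood apart (background 19.6%). In CH+LIF HP it was -1.37 (SE 0.36, interval -2.13 to -0.60, adjusted p = 0.0235, background 5.82%). That call was kept without those 2 libraries (-1.30, adjusted p = 0.0106, background 11.8%) but was lost on leaving out replicate 2 of PO (0.0518) or replicate 1, 2 or 3 of CH+LIF HP (0.119, 0.0855 and 0.0684). In 2i+LIF LP the difference of -1.11 had no overlap between libraries and an adjusted p of 0.0641 (background 5.06%), or 0.0217 with DESeq2 (background 9.68%). It includes both libraries that stood apart, and without them it was -0.81 (adjusted p = 0.163). CH+LIF LP was at -0.68 (adjusted p = 0.239, background 8.31%) and LIF LP at -0.38 (adjusted p = 0.515, background 12%). LIF HP was at -0.15 (interval -0.90 to 0.60, adjusted p = 0.824, background 12.3%). Without those libraries the last 3 were -0.63, -0.31 and -0.089, none of them called. These contrasts share the PO libraries, and those of LIF LP and LIF HP with the largest shares of called genes had the smallest Fgf4 differences.

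The summed embryonic stem cell markers were highest in 2i+LIF PO, at 6041 to 6806 CPM, and lowest in 2i+LIF HP, at 2928 to 3974 CPM, as was Fgf4. In LIF HP they summed to 4178 to 4654 CPM, the second-lowest median of the 7 groups, while Fgf4 was second-highest. In LIF HP against 2i+LIF HP, the contrast in which Fgf4 was called, they were higher as Fgf4 was. The median log2 difference of the 12 markers was 0.53 against -0.02 over all genes, and 2 were called higher, Tdgf1 (14.9-fold) and Dppa5a (7.1-fold), and 0 lower, beside 3.78% of all genes called. The fit without the 2 libraries that stood apart called 4 higher and 0 lower, beside 13%. Primitive streak markers summed to 22.5 to 29.7 CPM in PO, to 46 to 139 CPM in 2i+LIF HP and to 46.9 to 62.8 CPM in the libraries of LIF HP. The part of these markers in the Fgf4 differences was not tested. In these bulk libraries, fewer cells of a type and less RNA per cell cannot be told apart.

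Fgf8, Fgf15 and Fgf17 were at the edge of detection. Fgf8, an organizer signal of gastrulation and of the midbrain boundary (ENSMUSG00000025219, chromosome 19, 45736798 to 45742915, minus strand), had 12 counts in all, in 8 of 21 libraries and never above 2. All 3 libraries of LIF HP were at 0. Fgf15, the mouse counterpart of human FGF19 (ENSMUSG00000031073, chromosome 7, 144896531 to 144900953, plus strand), had 10 counts in 6 libraries, and all libraries of PO, 2i+LIF HP and LIF HP were at 0. Its gene model overlaps Gm26793 and Gm39119, and since the strand setting of the counting is not given, reads there may be shared or lost. A count of 0 allows up to 3 counts, which is 0.748 to 1.58 CPM in the PO libraries, and covers counting error only.

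Fgf17, a relative of Fgf8 in the same subfamily (ENSMUSG00000022101, chromosome 14, 70636203 to 70642268, minus strand), had 48 counts in 15 libraries. LIF LP held 6, 2 and 13 counts, or 3.3, 1.33 and 6.25 CPM. LIF HP held 4, 2 and 3 counts, 2i+LIF HP 4, 3 and 0, and no other library more than 2. Pooled over libraries, 21 counts in LIF LP stood against 2 in PO, a ratio of 18.9 with a counting interval of 4.62 to 166. Replicate 3 of LIF LP gave most of the 21, and replicate 1 of PO, which stood apart, gave both counts of PO. Without that library PO was at 0. The pooled Fgf17 level of LIF LP was then 10.2 times a floor of 3 counts over the other 2 PO libraries. It was 6.29 times that floor without replicate 3 of LIF LP as well. Such ratios to a floor take the counts of the higher group as exact, so they are not lower bounds. In a fit that kept every gene with at least 1 count, the lowest adjusted p of Fgf17 was 0.139, for the same contrast. In the same fit without the 2 libraries that stood apart, an alternative chosen after seeing the data, this contrast passed (adjusted p = 0.018) against a background of 12.7% of 18726 genes. It also passed without replicate 1 of PO alone (0.0348), and not on leaving out any other library of the 2 groups (0.152 to 0.392).

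Fgfr1 (ENSMUSG00000031565, chromosome 8, 25513654 to 25575718, plus strand), the receptor through which embryonic stem cells chiefly read Fgf4, had counts in all 21 libraries, 1273 in all. It was at 53.3, 40.3 and 47.1 CPM in PO. At LP it was at 21, 22.8 and 34.1 CPM in 2i+LIF, 51.8, 23 and 16.7 CPM in CH+LIF, and 39.7, 31.9 and 31.3 CPM in LIF. At HP it was at 28.8, 31.6 and 15.3 CPM in 2i+LIF, 16.9, 18.6 and 28.2 CPM in CH+LIF, and 29.4, 13.5 and 16.5 CPM in LIF. The PO libraries lay above every other library but replicate 1 of CH+LIF LP. The cultured groups overlapped, apart from LIF LP, which lay above LIF HP and CH+LIF HP. The gene model overlaps Gm16159.

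The means ran from 46.9 ± 6.51 CPM in PO through 34.3 ± 4.68 in LIF LP, 30.5 ± 18.7 in CH+LIF LP, 26 ± 7.09 in 2i+LIF LP, 25.3 ± 8.7 in 2i+LIF HP, then 21.2 ± 6.09 in CH+LIF HP, to 19.8 ± 8.42 in LIF HP (SD, n = 3). Only the first step, from PO to LIF LP, was larger than the larger SD. No contrast of Fgfr1 was called by edgeR, and 4 of its 6 contrasts against PO had an unadjusted p under 0.05. Against PO the difference ran from -0.45 in LIF LP to -1.22 in LIF HP, or from -0.35 to -1.13 without the 2 libraries that stood apart. That of LIF HP was 2.33-fold (SE 0.42, interval -2.11 to -0.33) with an adjusted p of 0.0531, and 9 of 29 alternatives called it, DESeq2 among them (0.0282, background 17%). Its adjusted p without those 2 libraries was 0.0704. Among the cultured groups the largest difference was -0.77 for LIF HP against LIF LP (interval -1.67 to 0.13, adjusted p = 0.245). For LIF HP against 2i+LIF HP, the contrast in which Fgf4 rose, Fgfr1 was at -0.35 (interval -1.26 to 0.55). Intervals of this width do not show equal levels.

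The other receptors were represented by a few reads. Fgfr2, the receptor of primitive endoderm and trophectoderm (ENSMUSG00000030849, chromosome 7, 130162451 to 133123350, minus strand), had 13 counts in 5 libraries and none in 2i+LIF LP, LIF LP or CH+LIF HP. Its annotated model spans 2960900 bases and overlaps 46 other listed genes, so its count is uncertain. Fgfr3, known from cartilage and the nervous system (ENSMUSG00000054252, chromosome 5, 33721674 to 33737068, plus strand), had 43 counts. It was at 0 in all PO libraries, at 3, 5 and 6 counts in LIF LP and at 10, 2 and 0 counts in CH+LIF LP. All 3 LIF LP libraries exceeded all PO libraries. The pooled Fgfr3 level of LIF LP was 8.41 times a floor of 3 counts over the PO group, and that of CH+LIF LP 7.73 times. Without replicate 1 of PO these ratios were 6.77 and 6.23. They leave out the counting error of the LP groups. Replicate 1 of CH+LIF LP held 10 of its 12 counts, and without it the 2 counts left stood at 2.19 times the same PO floor. LIF LP against PO was the 1 call among the low members in the fit of all genes with a count (adjusted p = 0.0308), which called 8.23% of 18931 genes in that contrast. It was kept without the 2 libraries that stood apart (0.037) and without replicate 1 of LIF LP (0.0392). It was lost on leaving out replicate 1, 2 or 3 of PO (0.0617, 0.121 and 0.124) or replicate 2 or 3 of LIF LP (0.0803 and 0.0661), fits added after seeing the data. In CH+LIF HP Fgfr3 had 7, 2 and 0 counts and in LIF HP 1, 4 and 0.

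Fgfr4, known from liver and endoderm (ENSMUSG00000005320, chromosome 13, 55152640 to 55168759, plus strand), had 53 counts in 13 libraries. It was at 0 in all 3 libraries of 2i+LIF HP, at 1, 6 and 9 counts in LIF LP and at 3, 9 and 3 counts in CH+LIF LP. The single count in replicate 1 of LIF LP, 0.551 CPM, lay under the 1.39 to 2.88 CPM that a count of 0 allows in the 2i+LIF HP libraries, so that library could not be told from them. The pooled Fgfr4 level of LIF LP was 4.97 times a floor of 3 counts over 2i+LIF HP, and that of CH+LIF LP 5 times. These ratios leave out the counting error of the LP groups. Replicate 2 held 9 of the 15 counts of CH+LIF LP, and without it the ratio of CH+LIF LP was 2.98. None of its contrasts was called in the fit of all genes with a count, with 4 of 19 tests at an unadjusted p under 0.05 and a lowest adjusted p of 0.185.

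**Figure D3:**
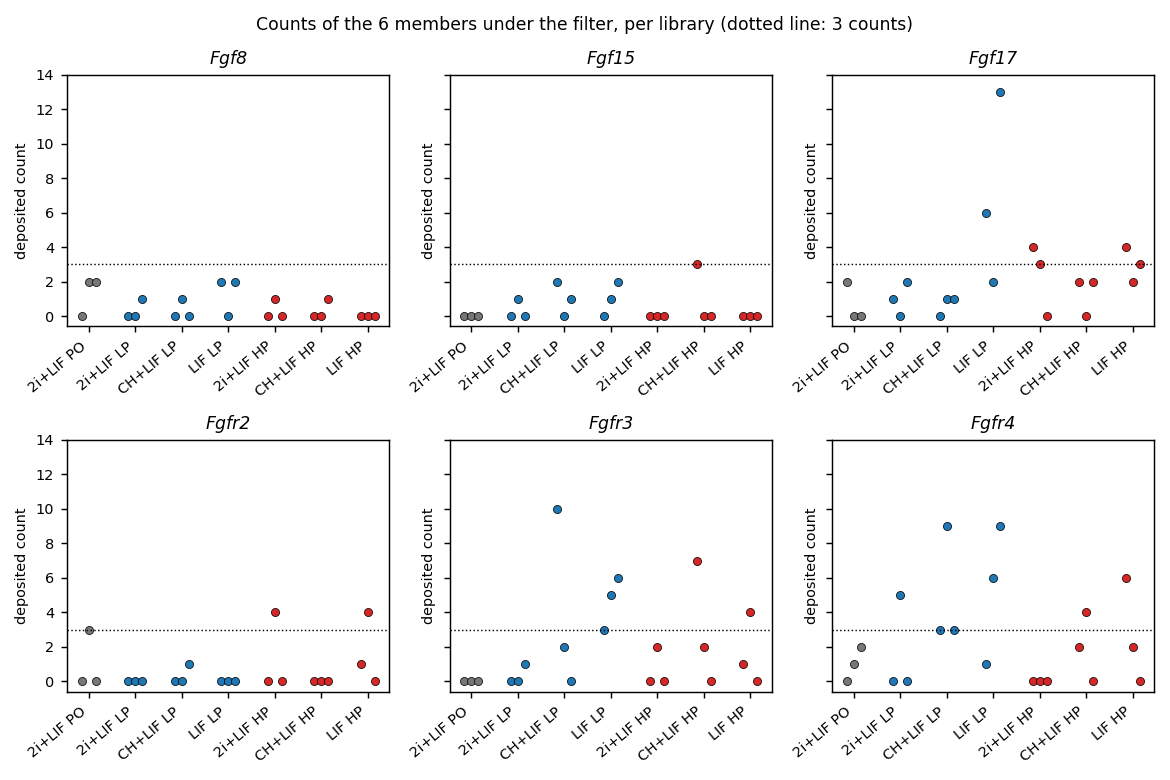
Deposited counts of the 6 members under the filter, in each library by group, with a dotted line at 3 counts, the most that a count of 0 allows. Fgf17 reaches 13 counts in LIF LP, Fgfr3 10 in CH+LIF LP and Fgfr4 9 in LIF LP and CH+LIF LP, whereas Fgf8 stays at or below 2.

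Levels between genes were compared per kilobase of annotated exon, which assumes reads along the whole transcript. The library kit is not given in the sources used here. On this scale Fgf4 made up 65.5 to 95.7% of the summed level of the 22 genes named Fgf with a number. The median over libraries was 87.9%. The share of Fgf4 was 92.6 to 95.7% in PO and 90.1 to 92.1% in LIF HP, against 66.6 to 77.4% in 2i+LIF HP. Fgfr1 made up 57.7 to 100% of the summed level of the 4 receptors, from 16 to 191 receptor counts per library. It was at 96.5 to 100% in PO, and lay below that range in all libraries of CH+LIF LP, at 57.7 to 82.8%, and of LIF LP, at 66.1 to 91.2%. The other 4 groups reached 100% in at least 1 library. The ratio of Fgf4 to Fgfr1 per kilobase ran from 3.41 to 10.4 in 2i+LIF HP and from 21.3 to 52.1 in LIF HP. In the other 5 groups it ran from 10.8 to 22.7, a range that replicate 1 of LIF HP shared and that lay above all of 2i+LIF HP. The ratio was not tested, and the Fgfr1 counts of LIF HP, from 16 to 57, limit its precision.

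Of the 18 other genes named Fgf with a number, outside the members, 16 had counts and 3 were tested, Fgf1, Fgf3 and Fgf10. Fgf1, a ligand that binds all the receptors, passed the filter only through LIF LP, the group where it was high, so its values are a description with no test. It was at 13.8, 8.63 and 12 CPM in LIF LP, at 0 in all PO libraries and at or below 1.68 CPM in every other library. LIF LP stood apart from all other groups with no overlap. Its pooled Fgf1 level was 37.8 times a floor of 3 counts over PO, or 30.5 times without replicate 1 of PO. Fgf10, a ligand of Fgfr2, differed among cultured groups (joint adjusted p = 0.0103, or 0.00571 without the 2 libraries that stood apart). It had means of 6.84 CPM in PO and 3.56 to 5.67 CPM at LP, and all HP groups were lower, with means of 1.7 CPM in CH+LIF, 0.377 in LIF and 0.155 in 2i+LIF, from 9, 2 and 1 counts over their 3 libraries. Against PO Fgf10 was called lower in 2i+LIF HP (adjusted p = 0.00432) and in LIF HP (0.0114). The drop from 2i+LIF LP to 2i+LIF HP was called (adjusted p = 0.0198), also without the 2 libraries that stood apart (-4.33 on the log2 scale, adjusted p = 0.0168). That of LIF was called only without them (-2.87, adjusted p = 0.0402).

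Fgf4 lies in a cluster of FGF genes. The GENCODE model of Fgf4 used here for positions and gaps begins 14 kb before the RefSeq start that anchors the promoter window. Fgf3 ends 2.93 kb before the GENCODE start and 16.9 kb before the RefSeq start. Fgf15 begins 31.3 kb after the end of Fgf4, and LTO1 and Ccnd1 follow at 49.9 and 64.7 kb. Fgf3 was at 0 to 13.4 CPM and was not called jointly among cultured groups (adjusted p = 0.232). In the fit without the 2 libraries that stood apart it was called higher in LIF HP than in LIF LP (log2 difference 2.71 in both fits, adjusted p = 0.0411 against 0.0942 with them). Ccnd1, the cyclin that drives cells out of G1, was called (adjusted p = 0.00186, or 2.3e-05 without the 2 libraries that stood apart). In LIF HP against 2i+LIF HP Ccnd1 was lower, at 55 ± 4.65 against 218 ± 48.8 CPM (log2 difference -1.98, SE 0.39, adjusted p = 0.00428), while Fgf4 was higher in that contrast. Of the 9 genes of the locus list, 7 were tested and 2, Fgf4 and Ccnd1, were called jointly, beside 13.1% of all genes tested. The same 2 were called without those libraries, beside 24.5%.

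Among factors known to act on Fgf4, Foxd3 and Sp1 were called in the joint test (adjusted p = 0.0186 and 0.0275). Foxd3, a forkhead factor of pluripotent cells, stood at 3.85 ± 4.52 CPM in 2i+LIF HP, below CH+LIF HP at 29.4 ± 3.04 CPM. It did not follow Fgf4 in LIF HP, where it was at 9.53 ± 1.44 CPM, below PO at 33.7 ± 6.9 CPM (adjusted p = 0.0474). Without the 2 libraries that stood apart it was also called lower in LIF HP than in CH+LIF HP (log2 difference -1.61, adjusted p = 0.0426). Sox2, which binds the Fgf4 enhancer with Oct4, was at 410 ± 26.4 CPM in 2i+LIF HP, with 408 ± 30.5 CPM in LIF HP, the groups that differed most in Fgf4 at HP. Nanog was at 169 ± 60.1 and 388 ± 165 CPM in those groups, and was not called jointly (adjusted p = 0.0541). In LIF HP against 2i+LIF HP neither was called, Nanog at a log2 difference of 1.20 (adjusted p = 0.0698). Without the 2 libraries that stood apart Nanog was called higher in LIF HP (1.18, adjusted p = 0.0136) and Sox2 was not called (-0.026, adjusted p = 0.961), and both were called jointly (adjusted p = 0.017 and 0.0366).

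The 4 lists of the pathway outside the members held 92 genes, of which 62 were tested. Leaving out Fgf1, which passed the filter only through the group where it was high, 17 of 61 differed among cultured groups, against 13.1% of all genes. The ligands gave 1 of 2 (Fgf10) and the co-receptors and heparan sulfate genes 5 of 19. The cascade from receptor to ERK gave 2 of 24 (Ptpn11 and Plcg1), and the ERK targets and feedback genes 9 of 16. Without the 2 libraries that stood apart and with Sdc3 left out on the same ground, these were 1 of 2, 8 of 20, 6 of 24 and 11 of 17, or 26 in all, against 24.5% of all genes in that fit. Among the co-receptors, Fgfrl1, a receptor that lacks the kinase domain, reached 16.7, 94.8 and 24 CPM in 2i+LIF HP against 2.8, 7.75 and 4.47 CPM in 2i+LIF LP (log2 difference 3.12, SE 0.70, adjusted p = 0.0116), with replicate 2 far above the others. Without replicate 1 of 2i+LIF LP and of PO the difference was 2.85 (adjusted p = 0.0128). Gpc3, a glypican, was at 2.21 ± 1.52 CPM in PO, 2.99 ± 1.02 in 2i+LIF HP and 4.22 ± 0.987 in LIF HP, and at 22.7 to 38.4 CPM on average in the other 4 groups. Hspg2, the proteoglycan perlecan, fell from 36.1 ± 9.65 CPM in PO to 3.98 ± 1.79 in 2i+LIF HP (adjusted p = 0.00069, or 0.000223 without those libraries). It was also called lower than PO in LIF HP, at 5.63 ± 4.13 CPM (adjusted p = 0.00295), and in CH+LIF HP, at 10 ± 3.72 CPM (0.0283).

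**Figure D4:**
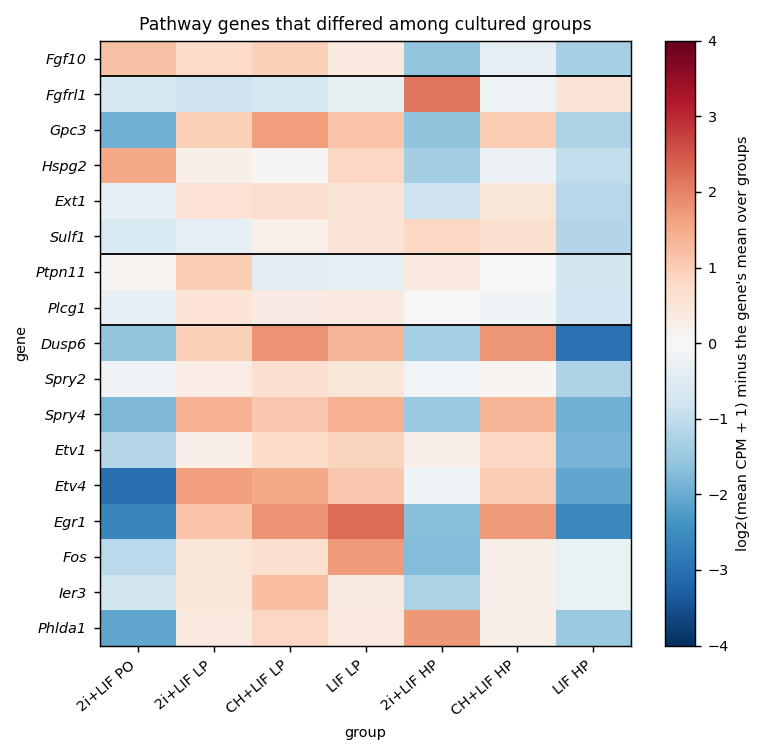
The 17 pathway genes called in the joint test of cultured groups, Fgf1 left out, as log2 of the group mean CPM plus 1, minus the gene's mean over the 7 groups. Lines separate ligands, co-receptors and heparan sulfate genes, the cascade, and ERK targets. Most ERK targets are blue in 2i+LIF PO and LIF HP and red in the LP groups and CH+LIF HP, with Phlda1 red in 2i+LIF HP.

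Genes induced by ERK did not follow the order of Fgf4 over all groups. Dusp6, the ERK phosphatase induced by ERK itself, was at 3.69, 2.61 and 2.24 CPM in PO and at 0, 1.23 and 0 CPM in LIF HP, the groups in which Fgf4 was highest. It was at 30.5, 40.5 and 40.4 CPM in CH+LIF HP and 33.4, 41.8 and 38.7 CPM in CH+LIF LP. In 2i+LIF LP it was at 0.701 CPM in replicate 1, which stood apart, and at 34.4 and 26.3 CPM in replicates 2 and 3. LIF LP held 20.4, 15.3 and 47.1 CPM and 2i+LIF HP 2.32, 4.91 and 2.88 CPM. The Dusp6 libraries of CH+LIF HP lay above those of both other HP groups, a different order from that of Fgf4. For CH+LIF HP against 2i+LIF HP alone, the list of ERK targets ran as Fgf4 did. Of 16 tested targets 3 were called higher (Dusp6, Egr1 and Spry4) and 0 lower, beside 2.02% of all genes. The median log2 difference of the 16 was 0.51, against -0.008 over all genes and 0.75 for Fgf4.

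Over the list, LIF HP was called below LIF LP in 10 of 16 tested ERK targets and called above it in none. The median log2 difference was -2.08 against 0.0077 over all genes, of which 9.96% were called. Without the 2 libraries that stood apart the count was 11 of 17, beside 21.6% of all genes. Fgf4 differed by 0.24 in the same contrast. LIF HP was called below 2i+LIF HP in 3 targets, Etv1, Etv4 and Phlda1, and called below CH+LIF HP in 5. The medians over all 16 targets were -1.38 and -1.55, against -0.02 and 0.0074 over all genes. These contrasts called 3.78% and 1.47% of all genes. Without the 2 libraries that stood apart, whose removal changes the spread shared by all groups, those counts were 6 and 8 of 17, in contrasts that then called 13% and 6.92% of all genes. In 2i+LIF HP 5 of 16 targets were called lower than in 2i+LIF LP, beside 3.67% of all genes called (median over the 16 -0.49). Without the 2 libraries 6 of 17 were called lower, beside 5.72%. Among the 5 was Etv4, an ETS factor induced by FGF, at 43.6 ± 23.7 against 155.1 ± 17.5 CPM (adjusted p = 0.004, or 0.00079 without the 2 libraries). That left Etv4 above its level in LIF HP, 10.9 ± 5 CPM (log2 difference of LIF HP from 2i+LIF HP -1.95, adjusted p = 0.00506). Over the 21 libraries Pearson's r of log2 CPM between Fgf4 and Dusp6 was -0.123, given as a description since libraries of a group share their medium.

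**Figure D5:**
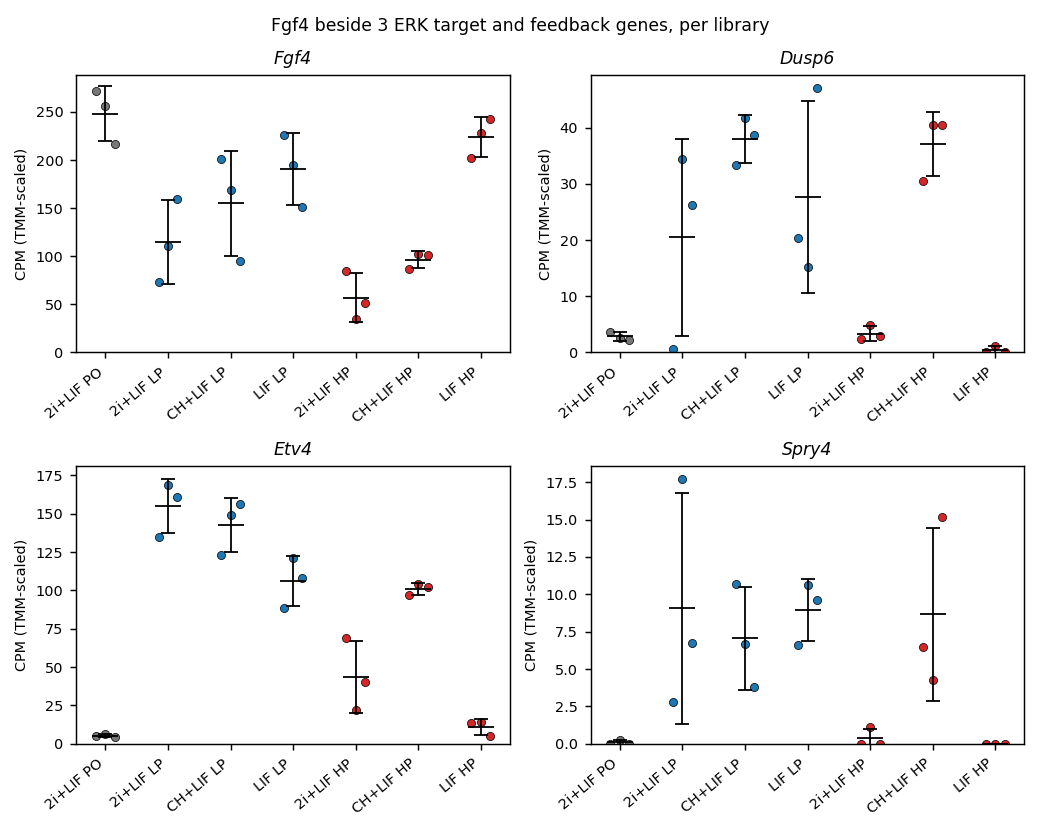
Fgf4, the ERK phosphatase Dusp6, the ETS factor Etv4 and the feedback inhibitor Spry4 in each library, in TMM-scaled CPM by group, with means and 1 SD. In LIF HP all 3 libraries are high for Fgf4, at 202 to 243 CPM, while Dusp6 is at or below 1.23 CPM and Spry4 at 0. In CH+LIF HP Fgf4 is at 86.3 to 102 CPM and Dusp6 at 30.5 to 40.5 CPM.

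The genes whose level followed Fgf4 most closely over the 21 libraries were Agpat4 (r = 0.89), an acyltransferase of phospholipid synthesis, Myof (r = 0.871), a membrane repair protein of the ferlin family, and Nodal (r = 0.828), the TGF-beta family ligand of the epiblast. They were picked for the highest r among 7602 genes with a mean of at least 10 CPM, so the values are a description. Over the 18 cultured libraries alone r was 0.904, 0.859 and 0.814. Nodal was at 13.7 ± 5.92 CPM in 2i+LIF HP, 47.8 ± 14.7 in CH+LIF HP and 64.7 ± 8.58 in LIF HP, the order of Fgf4 at HP, and Agpat4 at 3.97 ± 2.58, 21.7 ± 3.7 and 45 ± 8.79 CPM. The closest to Fgfr1 were Nhlrc2 (r = 0.859), Epop (r = 0.859) and Ptbp3 (r = 0.843). Fgf4 and Fgfr1 themselves had r = 0.404 over 21 libraries and 0.21 over the 18 cultured ones.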

How the data were processed

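RNA was sequenced by a service from 125 ng of total RNA per library, per the labels' protocols. For each library the authors deposited raw read counts over Ensembl gene IDs, which are whole numbers and not normalized. The submitters' processing notes name bcl2fastq, STAR 2.6.0a, HTSeq and mm10. The annotation, strand setting and filters are not given in the sources used here. Gene counts were 47.4 to 62% of a library's entries, and entries that name no gene (8.46 to 25.8% outside genes, 0.179 to 0.683% ambiguous, 20.8 to 35.4% not unique) were left out. Symbols and positions came from GENCODE M21 (31011 IDs found, 42 not), and promoter windows from RefSeq on GRCm38.p6.

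All 21 libraries entered 1 edgeR 4.0.16 quasi-likelihood fit (R 4.3.3) with TMM scaling, the filterByExpr filter and 14 residual degrees of freedom. Two-sided p-values were adjusted by Benjamini-Hochberg over 10643 genes per contrast, at a threshold of 0.05. Standard errors were the log2 difference divided by the square root of F, and 95% intervals used the t distribution with 14 degrees of freedom. These intervals are wider than the F test implies, so one can include no difference at an unadjusted p under 0.05. Log2 CPM used a prior count of 2. Likeness named the 3 genes of highest Pearson r per member with a mean of at least 10 CPM, leaving out Gm and Rik names. The members, lists and tests were chosen with earlier results of these data known. Names outside the members are genes of the lists called in the joint test or needed beside a member, and some listed genes are not reported here. The fit was tested on simulated counts. Alternatives were DESeq2 1.42.0, its size factors in edgeR, no filter, thinning to 1132126 counts, a replicate block, removal of 2 libraries, removal of mitochondrial genes and Gm42418, fits of 2 groups, and leaving out each library. Removal of the same libraries, or of single LIF LP or PO libraries, with no filter was added after seeing the data. Same-numbered libraries deviated together in all 3 pairs (r of 0.397, 0.345 and 0.179) only in 2i+LIF LP against PO.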

Additional observations from a re-analysis of the deposited data

How the results depend on the processing

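The joint call of Fgf4 and its calls in LIF HP against 2i+LIF HP and 2i+LIF HP against PO held in every alternative run. The number of member calls among the 9 contrasts of cultured groups, 1 as reported, was 2 with DESeq2, 3 without the 2 libraries that stood apart, 2 in fits of only the groups compared, and 1 to 2 on leaving out a library. Of all tests in those contrasts the fits called 2.38% as reported, then 4.16%, 5.9%, 5.89% and 1.23 to 3.57%. Against PO, 2 calls as reported became 4 with DESeq2 and 1 to 3 on leaving out a library, while the share of all tests called went from 9% to 13.4% and to 5.71 to 12.9%. With the replicate block it was 3, beside 10% of all tests, since Fgfr1 in LIF HP against PO passed (-1.27, adjusted p = 0.0391). The block changed no other member call. The pathway genes called among cultured groups, 17 as reported, ranged from 12 to 26, while the share of all genes called ranged from 7.92 to 24.5%.

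The uncalled Fgfr1 differences changed sign in places. 2i+LIF HP against 2i+LIF LP was 0.01 after thinning, and on leaving out a library it ran from -0.20 to 0.20. In the same way CH+LIF HP against CH+LIF LP ran from -0.82 to 0.08 and CH+LIF LP against 2i+LIF LP from -0.38 to 0.50. LIF LP against CH+LIF LP ran from -0.11 to 0.78, and LIF HP against CH+LIF HP from -0.53 to 0.15. The interactions ran from -0.78 to 0.10 (CH+LIF against 2i+LIF) and from -0.85 to 0.017 (LIF against CH+LIF). The cause was not tested. Removing mitochondrial genes and Gm42418 before scaling raised 5 group levels by more than 1 SD, that of Fgf4 in PO to 290 CPM. Depth limits the low members: 6 of 8 had at most 53 counts over all libraries.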
